A study of Mus musculus with 4 samples.

Results

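The tumor suppressor gene *Trp53*, which encodes p53, and 9 genes that p53 is known to activate were examined in mesenchymal stem cells (MSCs) from the long bones of mice with and without leukemia. The 9 targets were *Mdm2*, *Cdkn1a*, *Ccng1*, *Trp53inp1*, *Sesn1*, *Zmat3*, *Bax*, *Bbc3* and *Gadd45a*. They are textbook members of the pathway and were found by their gene symbol, and all 10 genes were among the 17457 genes of the expression table. RNA was sequenced from 2 pools of control MSCs and 2 pools of leukemia-associated MSCs (L-MSCs), each made of cells from 4 to 7 female C57BL/6J mice that were 7 to 9 weeks old at injection. The leukemia mice had received, by tail vein, 1000 cells of PER-M60, a BCR-ABL1+ pre-B acute lymphoblastic leukemia (B-ALL) line made with a retrovirus, and were killed at disease onset, whereas the control mice had received phosphate-buffered saline. All mice kept their own immune system and their own stroma, and 1 leukemia line was used.

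p53 is a transcription factor that is held at low activity by the ubiquitin ligase Mdm2 and released by DNA damage and other stresses. It then activates genes that stop the cell cycle, repair or protect the cell, or trigger apoptosis, and it also activates *Mdm2*, which closes a feedback loop. Because p53 is controlled mainly through the stability and modification of the protein, the transcripts of its targets are the usual readout of its activity, although many of these genes respond to other transcription factors as well. *Gadd45a* and *Sesn1*, for example, are also known as targets of the FoxO factors, which act when insulin and growth factor signaling is low.

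The short p53 element, 2 copies of which make up a full p53 binding site, was looked for in the promoter windows of these genes, because it is what the 9 targets are thought to share. The windows run from 250 bases before to 50 bases after each start site of RefSeq (GRCm38.p6), and 8 of the 10 genes had at least 1 window. *Trp53inp1*, which rose, and *Zmat3* had no window, so that the element was not looked for in them. Of the 8 genes with a window, 7 held the element, and 7 of their 12 windows did so. Over all genes, 8.36% of the windows held it. The sequences are shown to let the genes that rose be compared with those that did not. Each line gives 30 bases of the strand of the gene, with the element in capitals.

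*Gadd45a*, chr6:67037428-67037457, minus strand: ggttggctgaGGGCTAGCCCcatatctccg
*Sesn1*, chr10:41887256-41887285, plus strand: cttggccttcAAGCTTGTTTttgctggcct
*Cdkn1a*, chr17:29090918-29090947, plus strand: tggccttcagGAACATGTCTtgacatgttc
*Bax*, chr7:45467080-45467109, minus strand: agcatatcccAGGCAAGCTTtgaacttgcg
*Mdm2*, chr10:117710925-117710954, minus strand: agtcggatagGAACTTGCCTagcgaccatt
*Ccng1*, chr11:40755452-40755481, minus strand: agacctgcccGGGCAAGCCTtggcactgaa
*Trp53*, chr11:69580274-69580303, plus strand: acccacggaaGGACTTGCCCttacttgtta

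The element therefore stood both before *Gadd45a* and *Sesn1*, which were higher in L-MSCs, and before 5 genes that did not pass the test. *Cdkn1a* had another match 73 bases before the same start site, and the match shown lies 51 bases before it. The element of *Gadd45a* began 40 bases before its start site and that of *Sesn1* 173 bases before the second of its start sites in the table. The FoxO site GTAAACA was found in the windows of *Mdm2*, *Sesn1* and *Bbc3*, against 3.65% of all windows, and that of *Sesn1* lay at another of its start sites than the p53 element. The glucocorticoid receptor element AGAACA was in 0 of the 12 windows, against 19.0% of all windows. The TATA box TATAAA was in the window of *Trp53* alone, against 13.6% of all windows, and began 248 bases before the start site, at the far end of the window. Both strands were searched, and a match of letters is not a binding site.

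All 10 genes were detected, and their levels spanned more than 2 orders of magnitude. FPKM counts sequenced fragments relative to transcript length and library size, and allows levels to be compared between genes. *Cdkn1a*, which encodes the cell cycle inhibitor p21, was the highest, with a rank of 155 among all genes listed by mean FPKM. In control MSCs it was followed by *Bax*, *Trp53*, *Sesn1*, *Ccng1*, *Mdm2*, *Gadd45a*, *Trp53inp1*, *Zmat3* and *Bbc3*. The libraries of *Cdkn1a*, *Bax* and *Trp53* did not overlap with each other or with those of any lower gene. Those of *Ccng1* overlapped with those of *Sesn1* and *Mdm2*, and those of *Trp53inp1* with those of *Gadd45a* and *Zmat3*, whereas *Sesn1* lay just above *Mdm2* and *Zmat3* above *Bbc3*. In L-MSCs the first 4 and the last 2 places were held by the same genes. *Trp53inp1* had moved from place 8 to place 5 and *Gadd45a* from place 7 to place 6, ahead of *Ccng1* at 7 and *Mdm2* at 8. The libraries of *Trp53inp1* and *Gadd45a* overlapped there, as did those of *Gadd45a* and *Ccng1* and those of *Ccng1* and *Mdm2*.

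**Figure D1:**
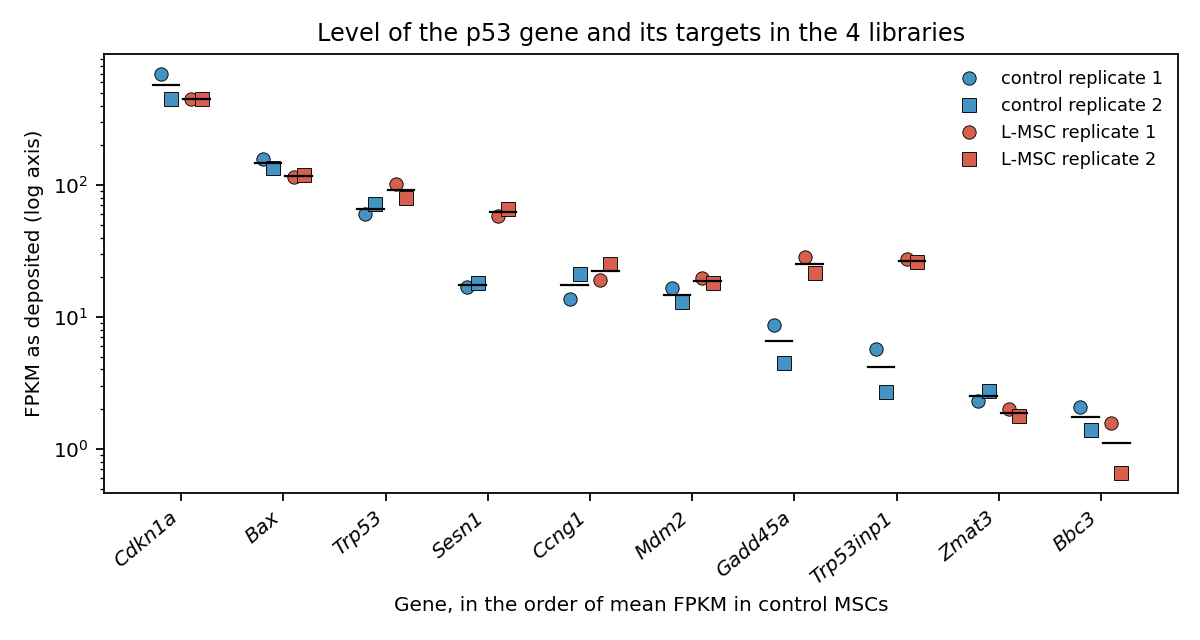
FPKM as deposited, on a log axis, of *Trp53* and 9 targets in the 2 control and 2 L-MSC libraries, with a horizontal bar at the mean of each group. *Sesn1*, *Gadd45a* and *Trp53inp1* show a wide gap between the groups, from at most 18.15, 8.70 and 5.68 in control MSCs to at least 58.49, 21.69 and 26.04 in L-MSCs. The groups of the other 7 genes overlap or lie closer together, and control replicate 1 of *Cdkn1a* stands apart at 694.61.

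Of the 10 genes, 3 rose in L-MSCs and 0 fell, against 2.43% of all genes tested that rose and 2.65% that fell. These were *Trp53inp1*, *Sesn1* and *Gadd45a*, and the remaining 7, *Trp53* included, did not pass the test. The test was limma on log2(scaled FPKM + 1), fitted to the 11056 genes that reached an FPKM of 1 in 2 or more libraries. A gene was called changed where the p adjusted by Benjamini-Hochberg did not exceed 0.05 and the log2 fold change reached 1 up or down. The median log2 fold change of the 10 genes was 0.24, beside -0.01 over all genes tested, and 6 of them had a positive and 4 a negative value. After scaling, both L-MSC libraries lay above both control libraries for 4 genes and below them for 3, where 24.8% and 27.2% of all genes tested did so, and the groups overlapped for the other 3. In these bulk samples, a change in the share of a type of cell and a change in the RNA per cell cannot be told apart.

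*Trp53inp1* (gene ID 60599) had the largest change of the 10 genes. It encodes a stress-induced protein that promotes the phosphorylation of p53 and takes part in autophagy, and it lies on chromosome 4 of GRCm38.p6 from 11156441 to 11174379. Its FPKM was 5.68 and 2.71 in control replicates 1 and 2 and 27.48 and 26.04 in L-MSC replicates 1 and 2. The L-MSC libraries were nearly equal and the control libraries were not, but the highest control stayed far below the lowest L-MSC library. The means were 4.20 ± 2.10 (SD, n = 2) and 26.8 ± 1.02 (SD, n = 2), a ratio of 6.38. The log2 fold change was 2.39 (standard error 0.32, adjusted p = 0.00441 from limma), the 29th largest increase of all genes tested.

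*Sesn1* (gene ID 140742) was the most even of the 3 between the control replicates. It encodes sestrin 1, of a family of stress-induced proteins that restrain the growth kinase complex mTORC1 and protect against oxidation, and it lies on chromosome 10 from 41810574 to 41908436. Its FPKM was 16.89 and 18.15 in control MSCs and 58.49 and 65.77 in L-MSCs, so that each L-MSC library was more than 3 times each control library. The means were 17.5 ± 0.891 (SD, n = 2) and 62.1 ± 5.15 (SD, n = 2), a ratio of 3.55. The log2 fold change was 1.67 (standard error 0.22, adjusted p = 0.00351 from limma). With this rise, *Sesn1* stood well above *Ccng1*, with which it overlapped in control MSCs.

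*Gadd45a* (gene ID 13197) encodes a small stress protein that binds PCNA, p21 and stress kinases and can arrest the cell cycle, and it lies on chromosome 6 from 67035096 to 67037407. Its FPKM was 8.70 and 4.45 in control MSCs and 28.64 and 21.69 in L-MSCs, and replicate 1 was the higher in both groups. The means were 6.58 ± 3.01 (SD, n = 2) and 25.2 ± 4.91 (SD, n = 2), a ratio of 3.83. The log2 fold change was 1.74 (standard error 0.33, adjusted p = 0.0167 from limma). In GENCODE M21 the non-coding gene *E230016M11Rik* runs on the opposite strand from 67036599 across the 5' end of *Gadd45a*, and with a library kit that does not mark the strand, reads from the shared stretch cannot be assigned to either gene. *Cdkn1a* also overlaps a gene on the opposite strand, and *Sesn1* and *Bax* each overlap one on the same strand.

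**Figure D2:**
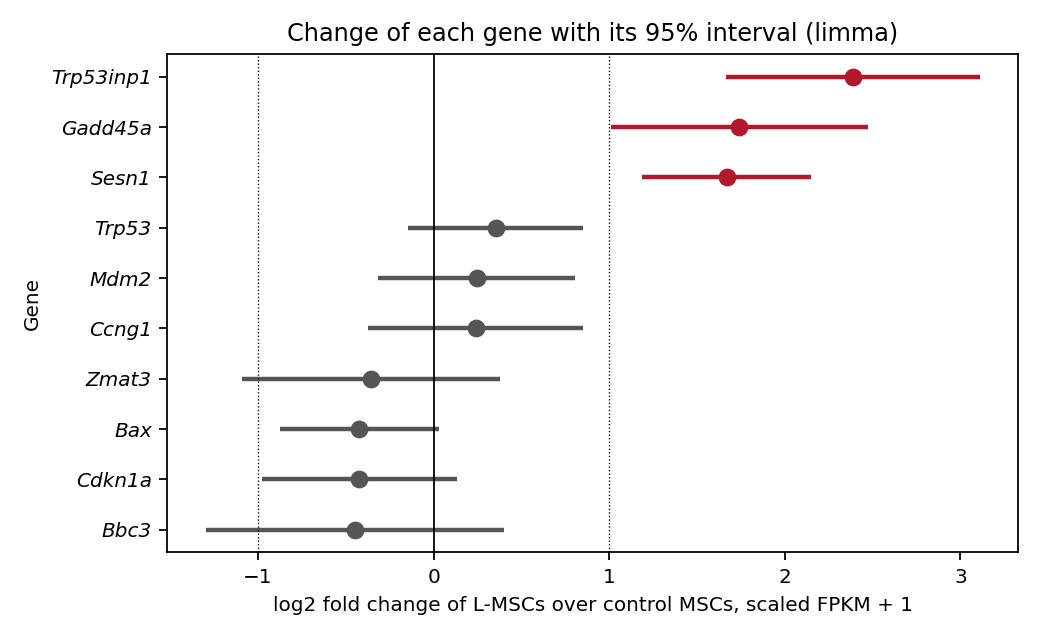
log2 fold change of L-MSCs over control MSCs for each gene (points) with its 95% interval from limma (bars, not adjusted for the number of genes), red for the genes that rose and gray for those that did not pass the test. The intervals of *Trp53inp1*, *Sesn1* and *Gadd45a* begin at 1.01 or above and those of the other 7 genes end at 0.85 or below, with dotted lines at a log2 fold change of 1 in either direction.

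*Trp53* (gene ID 22059) itself was abundant in both groups, and its difference did not pass the test. It lies on chromosome 11 from 69580348 to 69591873. Its FPKM was 60.01 and 71.86 in control MSCs and 101.96 and 80.24 in L-MSCs, so that both L-MSC libraries were the higher, by a margin smaller than the spread within L-MSCs. The log2 fold change was 0.35 (standard error 0.22, adjusted p = 0.404 from limma), with a 95% interval from -0.14 to 0.85. These values are of the transcript and do not measure the p53 protein.

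The feedback regulators of p53 had small positive values that did not pass the test. *Mdm2* (gene ID 17246, chromosome 10, 117688875 to 117710758) had an FPKM of 16.49 and 13.04 in control MSCs and 19.74 and 18.03 in L-MSCs. As deposited, the L-MSC libraries lay above the controls, and after scaling the groups overlapped. Its log2 fold change was 0.25 (standard error 0.25, adjusted p = 0.633 from limma), with a 95% interval from -0.31 to 0.80. *Ccng1* (gene ID 12450, chromosome 11, 40748552 to 40755309), which encodes cyclin G1, a partner of the phosphatase PP2A that acts on Mdm2, had an FPKM of 13.79 and 21.22 in control MSCs and 19.06 and 25.20 in L-MSCs. Replicate 2 was the higher in both groups, which overlapped. Its log2 fold change was 0.24 (standard error 0.27, adjusted p = 0.673 from limma), with a 95% interval from -0.37 to 0.85, and it was -0.05 without control replicate 1.

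*Cdkn1a* (gene ID 12575), the classical target through which p53 halts the cell cycle, was not higher in L-MSCs. It lies on chromosome 17 from 29090979 to 29100722. Its FPKM was 694.61 and 450.67 in control MSCs and 449.03 and 446.40 in L-MSCs, so that control replicate 1 stood apart from the other 3 libraries, which were nearly equal as deposited. After scaling the values were 726 and 464 in control MSCs and 440 and 425 in L-MSCs. Both L-MSC libraries were thus below both controls, before and after scaling. The log2 fold change was -0.42 (standard error 0.25, adjusted p = 0.368 from limma), with a 95% interval from -0.98 to 0.13. It was -0.11 without control replicate 1 and -0.76 without control replicate 2. The summed FPKM of 24 immediate-early genes, which cells switch on during the dissociation of tissue and under other stimuli, also differed between the control libraries, with 5565 in control replicate 1 and 2464 in control replicate 2, and was 11554 and 7499 in L-MSC replicates 1 and 2. *Gadd45a* and *Trp53inp1* were likewise higher in control replicate 1, by 0.86 and 0.87 on the log2 scale, and *Sesn1* was not, with a difference of -0.08. Of the 24 immediate-early genes, 6 rose and 0 fell in L-MSCs, beside 2.43% and 2.65% of all genes tested. The part of the immediate-early response in these differences was not tested.

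The apoptosis genes and *Zmat3* had negative values, none of which passed the test. *Bax* (gene ID 12028, chromosome 7, 45461695 to 45466903), whose product opens the outer mitochondrial membrane, had an FPKM of 157.90 and 134.97 in control MSCs and 114.59 and 118.97 in L-MSCs. Both L-MSC libraries were below both controls, and the log2 fold change was -0.42 (standard error 0.20, adjusted p = 0.271 from limma), with a 95% interval from -0.88 to 0.03. *Bbc3* (gene ID 170770, chromosome 7, 16308398 to 16318334), encoding the BH3-only protein Puma that triggers Bax, was the lowest of the 10 genes, with an FPKM of 2.08 and 1.38 against 1.57 and 0.66. The groups overlapped, and the log2 fold change was -0.45 (standard error 0.38, adjusted p = 0.555 from limma). *Zmat3* (gene ID 22401, chromosome 3, 32334792 to 32365665), encoding an RNA-binding zinc finger protein, had an FPKM of 2.29 and 2.75 against 1.99 and 1.77. Both L-MSC libraries were the lower, and the log2 fold change was -0.36 (standard error 0.33, adjusted p = 0.594 from limma). For *Bbc3* and *Zmat3* the added 1 understates a change in FPKM.

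The 3 calls remained in each of the 4 fits with 1 library removed, in which the lone library of a group is assumed to vary like those of the other group. Over these fits the log2 fold change went from 1.94 to 2.82 for *Trp53inp1*, from 1.60 to 1.72 for *Sesn1* and from 1.30 to 2.17 for *Gadd45a*, and its lowest value for *Trp53inp1* and *Gadd45a* was the one without control replicate 2. *Gadd45a* passed only narrowly there, and also with all 4 libraries but no variance trend (adjusted p = 0.0495 from limma). None of the 3 was called when the filter on low FPKM was dropped, a setting under which limma called 0 of 17457 genes. Before adjustment, 2324 genes had a p of 0.05 or less there, 4 of the 10 among them.

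**Figure D3:**
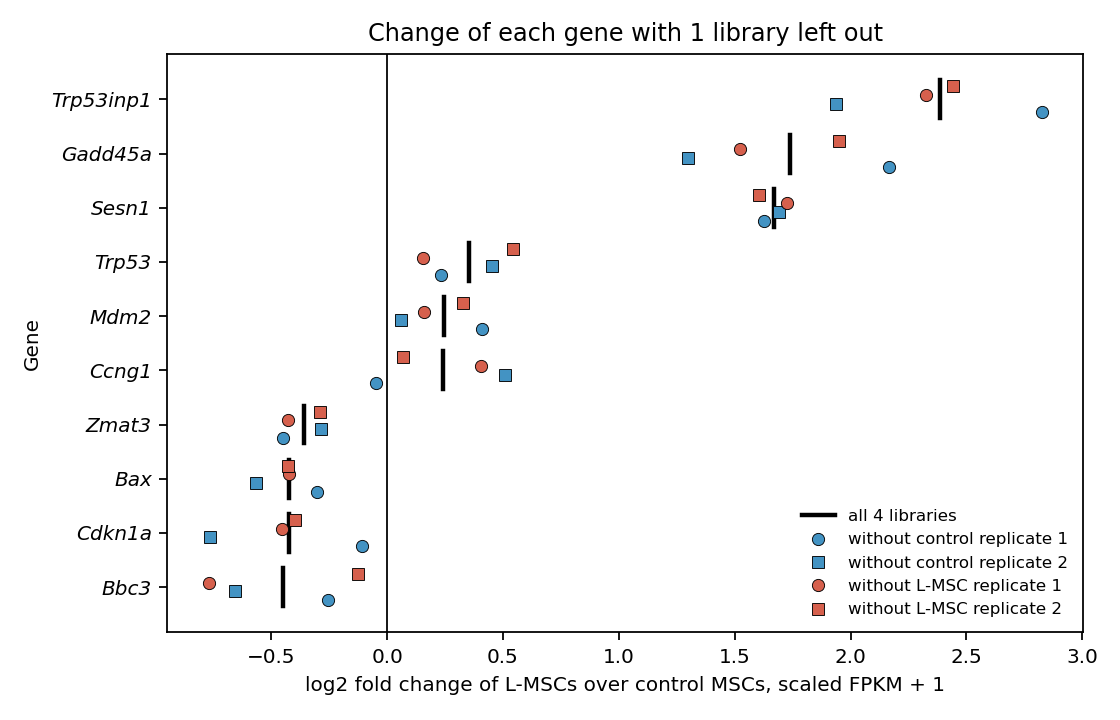
log2 fold change of L-MSCs over control MSCs for each gene with all 4 libraries (black bars) and with 1 library left out (blue for a control library, red for an L-MSC library; circles for replicate 1, squares for replicate 2). *Trp53inp1*, *Sesn1* and *Gadd45a* stay at 1.30 or above, and *Cdkn1a* moves between -0.11 and -0.76 with the control library that is left out.

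Of 10 tested close relatives of these genes, a list made after their values had been seen, 1 rose and 0 fell. The shares over all genes tested were 2.43% and 2.65%. Of the Gadd45 family, *Gadd45b* had an FPKM of 143.42 and 50.08 in control MSCs and 346.90 and 151.82 in L-MSCs, and *Gadd45g* had 413.13 and 118.27 against 789.30 and 492.20. Both were more abundant than *Gadd45a* and higher in replicate 1 of each group. Their log2 fold changes of 1.32 and 1.39 fell short of a call in limma (adjusted p = 0.153 and 0.137). These values were 2.08 and 2.29 without control replicate 1, and 1.94 and 1.75 without L-MSC replicate 2. Their lowest over the alternative settings were 0.54 and 0.46. Of the sestrins, *Sesn2* had an FPKM of 6.20 and 6.62 against 12.20 and 6.62, so that a single L-MSC library differed, and *Sesn3* was below 2 in all libraries. *Trp53inp2*, the paralog of *Trp53inp1* that acts in autophagy, had an FPKM of 13.83 and 14.46 against 5.60 and 8.79. Its log2 fold change of -1.01, opposite in sign to that of *Trp53inp1*, fell short of a call in limma (adjusted p = 0.0731). This value was -1.27 without L-MSC replicate 2 and -0.75 without L-MSC replicate 1.

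Among the relatives of *Cdkn1a*, the inhibitor gene *Cdkn1c*, which encodes p57, rose from an FPKM of 4.43 and 3.53 to 13.74 and 12.98. Its log2 fold change was 1.44 (standard error 0.28, adjusted p = 0.0191 from limma), and 1.29 without control replicate 2, where it did not pass (adjusted p = 0.0696). *Cdkn1b*, which encodes p27, was not called, with a value of 0.37 (adjusted p = 0.460). *Ccng2*, the relative of *Ccng1*, had an FPKM of 0.47 and 0.53 against 2.77 and 1.46, and did not pass (adjusted p = 0.171). *Mdm4*, the partner of Mdm2, had a log2 fold change of 0.62 (adjusted p = 0.258). Of the p53 relatives, *Trp63* was below an FPKM of 1 and *Trp73* was listed at 0 in all libraries.

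A further 40 genes that p53 is known to activate were examined. Of the 36 that were tested, 2 rose and 2 fell in L-MSCs, beside 2.43% and 2.65% of all genes tested, and their median log2 fold change was 0.25. Counts this small are near the shares over all genes. *Ddit4*, encoding the mTORC1 inhibitor Redd1, rose from an FPKM of 6.95 and 5.23 to 41.88 and 62.75 (log2 fold change 2.80, adjusted p = 0.00121 from limma), and *Igfbp3*, encoding a binding protein of insulin-like growth factors, from 7.56 and 7.05 to 39.31 and 67.32 (2.56, adjusted p = 0.00197). *Ak1*, an adenylate kinase, fell from 154.17 and 156.16 to 63.69 and 73.68 (-1.27, adjusted p = 0.00811), and *Cgref1*, a calcium-binding regulator of cell growth, from 70.29 and 59.93 to 13.25 and 22.38 (-1.95, adjusted p = 0.00450). The abundant *Rps27l*, a ribosomal protein gene, and *Ephx1*, an epoxide hydrolase, were not called, with values of -0.44 and -0.18 (adjusted p = 0.238 and 0.677). Without control replicate 1, 5 rose, and without L-MSC replicate 2, 4 fell.

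Of 21 tested genes that regulate p53 or belong to its family, 0 rose and 0 fell in the limma fit, beside 2.43% and 2.65% of all genes tested. Their median log2 fold change was 0.30. The most abundant were *Rpl11* and *Rpl5*, whose ribosomal proteins can hold back Mdm2, with log2 fold changes of 0.37 and 0.41 (adjusted p = 0.402 and 0.336 from limma). *Cdkn2a*, whose Arf product inhibits Mdm2 and whose p16 product inhibits cyclin-dependent kinases, was listed at 0 in all 4 libraries.

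Other genes of growth arrest were also examined. Of 25 tested in L-MSCs, 3 rose and 0 fell, beside 2.43% and 2.65% of all genes tested. The median of the list was 0.62 on the log2 scale. *Txnip*, encoding an inhibitor of thioredoxin and of glucose uptake, rose from an FPKM of 94.84 and 144.51 to 762.01 and 863.61 (log2 fold change 2.68, adjusted p = 0.000869 from limma), and *Cdkn1c* and the transcription factor gene *Klf9* (1.18, adjusted p = 0.0306) were the others. *Klf9* did not pass without control replicate 2 (adjusted p = 0.112) or L-MSC replicate 2 (0.0733). *Dusp1*, a phosphatase of stress kinases, had a log2 fold change of 0.56 that did not pass (adjusted p = 0.404), and 1.17 without control replicate 1, where it did (adjusted p = 0.0171). The count moved with the control libraries, with 8 genes rising without control replicate 1 and 1 without control replicate 2. Of 23 genes of proliferation, 0 rose and 2 fell, beside 2.43% and 2.65% of all genes tested, with a median of -0.32. After scaling, both L-MSC libraries lay above both controls for 6 of them and below for 8, near the 24.8% and 27.2% of all genes tested. *Tk1*, a thymidine kinase, fell from an FPKM of 9.29 and 6.82 to 0.91 and 1.41 (-2.14, adjusted p = 0.00736), and *Birc5*, encoding the mitotic protein survivin, from 7.07 and 6.91 to 2.13 and 2.21 (-1.41, adjusted p = 0.0268). *Birc5* did not pass without control replicate 1 (adjusted p = 0.0803) or 2 (0.0882). The more abundant *Pcna* and *Mcm6*, of DNA replication, had values of -0.11 and -0.06 (adjusted p = 0.867 and 0.906), and their sign changed between settings, *Mcm6* turning positive without scaling and both after quantile normalization.

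In the BCL2 family, 2 of 11 tested genes rose and 0 fell, beside 2.43% and 2.65% of all genes tested. *Bcl2l1*, encoding the apoptosis inhibitor Bcl-xL, which holds back Bax, rose from an FPKM of 29.91 and 32.22 to 95.45 and 80.01 (log2 fold change 1.36, adjusted p = 0.00811 from limma), and *Bcl2* from 2.24 and 1.43 to 11.99 and 7.37 (1.81, adjusted p = 0.0181). *Bcl2* did not pass without control replicate 2 (adjusted p = 0.0613) or without L-MSC replicate 1 (0.0560). The proapoptotic *Bcl2l11*, encoding Bim and named after its values were seen, had an FPKM of 4.54 and 2.04 against 8.62 and 7.21, and its log2 fold change of 1.03 did not pass (adjusted p = 0.137). *Bnip3*, of mitophagy, had a value of 0.71 (adjusted p = 0.224 from limma), and *Bad*, which opposes Bcl-xL, of -0.46 (adjusted p = 0.291). That of *Bnip3* was 1.23 without control replicate 1, and its lowest over the alternative settings was 0.17. As deposited, *Bax* exceeded *Bcl2l1* by FPKM in all 4 libraries, with 157.90 and 134.97 against 29.91 and 32.22 in control MSCs and 114.59 and 118.97 against 95.45 and 80.01 in L-MSCs.

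Targets of other factors that are known to act on some of these genes moved in the same libraries. Of 15 tested FoxO targets, 7 rose and 0 fell, beside 2.43% and 2.65% of all genes tested, and the median was 1.03 on the log2 scale. Their summed FPKM was 354 and 414 in control MSCs and 1500.4 and 1552 in L-MSCs. *Txnip* alone had 94.84 and 144.51 against 762.01 and 863.61. The genes that rose included *Pdk4*, *Klf15*, *Txnip* and *Irs2*, with log2 fold changes of 4.27, 3.12, 2.68 and 1.85. *Cat* and *Sod2*, of antioxidant defense, had 0.01 and 0.48 and did not pass (adjusted p = 0.991 and 0.359 from limma). *Irs2* did not pass without control replicate 2 (adjusted p = 0.0950) or L-MSC replicate 1 (0.0641). Of 15 glucocorticoid targets, 12 rose and 0 fell, beside the same shares of all genes tested, with a median of 1.87. The largest rises were those of *Pdk4*, *Klf15*, *Ddit4* and *Zbtb16*, and *Nfkbia* and *Dusp1* did not pass. *Nfkbia* had a log2 fold change of 0.90 (adjusted p = 0.229 from limma). This value was 1.53 without control replicate 1 and 1.33 without L-MSC replicate 2, and its lowest over the alternative settings was 0.25. *Pdk4* and *Klf15* stand in both lists, *Ddit4* also among the p53 targets and *Txnip* also among the growth arrest genes. The growth arrest genes share *Ccng2* and *Sesn3* with the FoxO targets as well, and *Klf9* and *Dusp1* with the glucocorticoid targets. *Bcl2l11* stands in the BCL2 family and among the FoxO targets. The part of either factor in the values of *Trp53inp1*, *Sesn1* and *Gadd45a* was not tested.

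**Figure D4:**
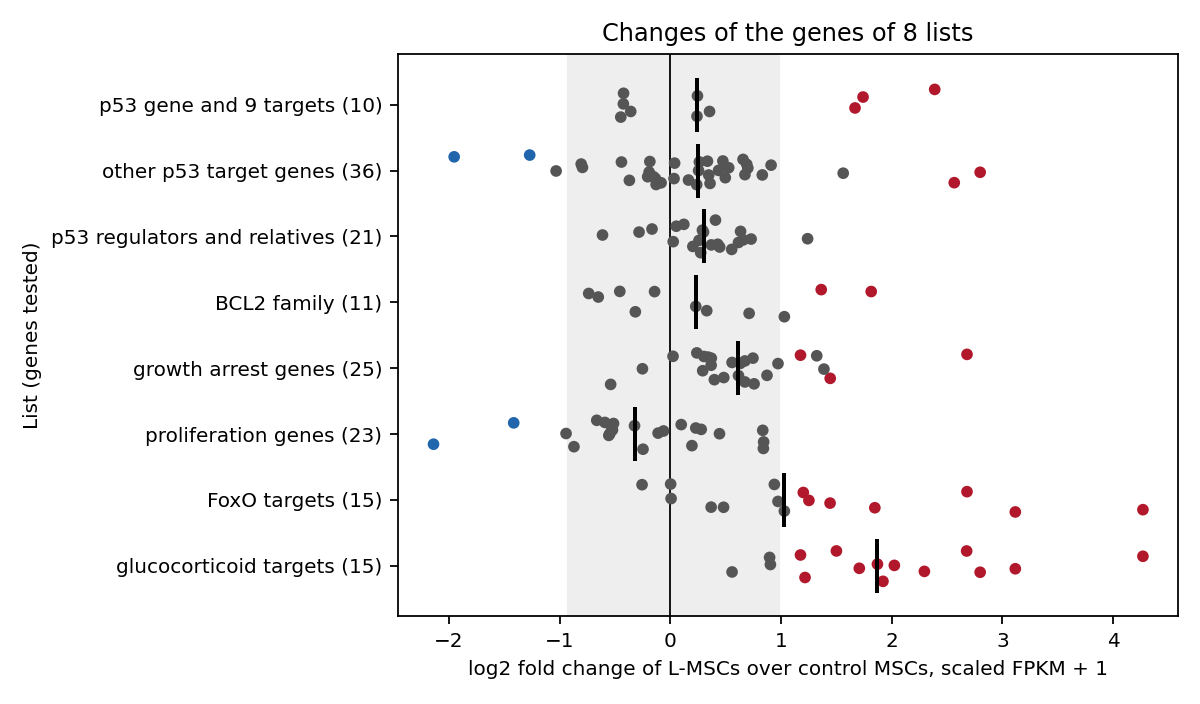
log2 fold change of L-MSCs over control MSCs for each tested gene of 8 lists (points; red rose, blue fell, gray did not pass the test), with a black bar at the median of each list and the range from percentile 5 to percentile 95 of all genes tested, -0.93 to 0.98, shaded. The medians go from -0.32 for the proliferation genes to 1.87 for the glucocorticoid targets, with 0.24 for *Trp53* and its 9 targets, and some genes stand in more than 1 list.

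The libraries held 13623 to 14704 genes above 0, and their FPKM needed scaling factors of 0.957 to 1.05. *Ly6a* and *Pdgfra*, the genes of the antigens Sca-1 and PDGFRα that the sort selected for, were at an FPKM of at least 1056 and 66.8, and *Ptprc* and *Pecam1*, of the lineages it removed, were below 1. Of 10 markers of the sorted MSCs, 1 rose and 3 fell, beside 2.43% and 2.65% of all genes tested. The same shares stand beside the marker counts that follow. Of 15 listed markers of hematopoietic cells, 6 were tested, 0 rose and 0 fell, and the sum over the list was 49.4 and 52.9 in control MSCs and 85.3 and 69.2 in L-MSCs. All 4 tested of 8 erythroid markers fell, with sums of 239 and 150.01 against 10.1 and 6.26. Of 9 tested osteoblast and chondrocyte markers 0 rose and 2 fell, with sums of 5243 and 6052 against 4247 and 5836. Most of these sums came from *Comp*, with an FPKM of 3574 and 5310 in control MSCs and 3578 and 4702 in L-MSCs. The median log2 fold change of this list was -0.94. After scaling, both L-MSC libraries lay below both controls for 7 of these 9 genes and above for 0, beside 27.2% and 24.8% of all genes tested. The 8 endothelial markers summed to 4.80 to 5.38 in all libraries. Their part in the differences given here was not tested.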

How the data were processed

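MSCs were sorted as CD45-, TER119-, CD31-, Sca-1+ and PDGFRα+ cells, amplified with a SMART-Seq kit and sequenced. According to the submitters' processing notes, the reads were aligned with HISAT2 2.0.4 and Bowtie2 2.2.5 to GRCm38.p6, and the authors calculated FPKM with RSEM 1.2.8 (deposited with 2 decimals, not scaled between libraries). The read number of each library is not given with the FPKM, so that no counting interval was computed. The table also holds 1 column of the authors' own log2 ratio, which was not used.

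Median-of-ratios factors were applied to the FPKM, log2(FPKM + 1) was compared with limma 3.58.1 in R 4.3.3 (eBayes with trend), and p-values were adjusted over all genes tested. The fit was tested on simulated data. No separate cultures or days are given beyond the pools of mice, and for 2 libraries against 2 the smallest exact permutation p is 0.333. The 10 genes and all lists were chosen with earlier results of these data known. Named genes of a list were up to 4 called genes with the largest change and 2 others with the highest FPKM. For cell type markers and immediate-early genes, sums were given in place of names, except for *Comp* and the genes of the sort antigens. Alternatives were other scalings and pseudocounts, other filters, limma without trend or with a robust fit, a replicate block, no fold threshold, and each library left out.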

Additional observations from a re-analysis of the deposited data

How the results depend on the processing

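With every gene kept, limma made 0 calls among the 10 genes, the other p53 targets and the growth arrest genes. In the remaining 14 settings, the same 3 of the 10 genes rose and 0 fell, with 8 of the 10 tested at an FPKM of at least 5. With 1 library left out, the other p53 targets that rose numbered 2 to 5 and those that fell 2 to 4, and the growth arrest genes that rose 1 to 8. The labels do not say that equal replicate numbers share a day or litter, and the deviations of the replicates had a correlation of 0.10 between the groups. The replicate block gave 5 growth arrest genes that rose in place of 3, and 509 genes of all that rose in place of 269. Over all genes, counts that were added after the data had been seen, 148 rose and 128 fell without a variance trend, 436 and 546 without L-MSC replicate 2, and 194 and 182 fell without scaling and with TPM in place of 293. *Gadd45b*, *Gadd45g* and *Trp53inp2* were called with the block. Values of 6 genes that did not pass with all libraries changed sign. With 1 library left out, the log2 fold change went from -0.048 to 0.51 for *Ccng1*, -0.072 to 0.76 for *Sesn2*, -0.080 to 1.17 for *Dusp1*, -0.44 to 0.20 for *Pcna*, -0.17 to 0.044 for *Mcm6* and -0.13 to 0.12 for *Cat*. *Pcna* and *Mcm6* had 0.061 and 0.028 after quantile normalization, and *Mcm6* 0.038 without scaling.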
